A study of Homo sapiens with 12 samples.

Results

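The autophagy genes described here were 10 genes that build the autophagosome or load it: the cargo receptors SQSTM1 and NBR1, the ATG8 family genes MAP1LC3B, GABARAPL1 and GABARAPL2, the kinase ULK1, the phosphatidylinositol 3-kinase subunit BECN1, the phosphoinositide-binding protein WIPI1, and the conjugation factors ATG5 and ATG16L1. They were taken by name from a table of 63677 Ensembl genes, and all 10 had enough reads to be tested. RNA-seq was performed on polyadenylated RNA of the MCL (mantle cell lymphoma) cell lines JEKO1, JVM2 and MAVER1, cultured for 48 h without a named drug (control), under either drug, or under the 2 drugs together (both drugs). Ironomycin gathers iron in lysosomes, and ibrutinib inhibits BTK, the kinase downstream of the B-cell receptor. JEKO1 received 50 nM ironomycin and 0.5 µM ibrutinib, JVM2 received 250 nM and 1.5 µM, and MAVER1 received 250 nM and 6.25 µM. Each of the 12 combinations of line and treatment gave 1 library, so a treatment has 3 replicates, 1 per line, and line and dose cannot be told apart. The lines were also grown differently: JVM2 had less serum than the other lines and was seeded at a lower density. What the control cells received is not stated in the labels.

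Autophagy encloses cytoplasm in a double membrane and delivers it to the lysosome. The ULK1 kinase complex starts the process, a lipid kinase complex built on BECN1 marks the growing membrane with phosphatidylinositol 3-phosphate, and WIPI proteins read that mark. A complex that contains ATG5 and ATG16L1 then attaches ATG8 proteins to the membrane, where cargo receptors such as SQSTM1 (p62) and NBR1 dock with their ubiquitinated load. Ferritin, the iron store, is one cargo of this route. The level of a transcript does not measure how much autophagy takes place, and the ATG8 proteins and cargo receptors are themselves consumed by it.

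Library totals ran from 35448523 to 38630809 reads. Levels are given as CPM (the count of a gene scaled to the TMM-adjusted size of its library). The 4 B-cell markers MS4A1, CD79A, CD79B and PAX5 were over 1 CPM in every library, with sums of 1082 to 1955 CPM. Of the mantle cell lymphoma markers CCND1, SOX11 and CD5, all 3 were over 1 CPM in every JEKO1 and MAVER1 library, while in JVM2 SOX11 had no reads and CD5 had 1 or 2 reads in a library. With both drugs against control CD5 changed by -1.84 (SE 0.24, adjusted p = 0.00252) and SOX11 by 1.22 (SE 0.26, adjusted p = 0.0122) on the log2 scale (edgeR), and CCND1 did not pass. The B-cell marker CD79A changed by -0.53 (SE 0.13, adjusted p = 0.0151), while MS4A1, CD79B and PAX5 did not pass. At low counts, the T-cell markers CD3E and CD3G and the monocyte marker LYZ also passed as lower. The part of these markers in the values below was not tested. The 3 T-cell markers summed to at most 2.49 CPM and the 3 monocyte markers to at most 5.07 CPM, the latter in JVM2 with both drugs. In a culture, less RNA per cell and fewer cells that carry a transcript cannot be told apart.

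The lines did not express these genes alike, in control or over the 4 treatments. Per kilobase of merged exon in the control libraries, GABARAPL2 was the highest gene in JEKO1 at 22.3 CPM per kb and in JVM2 at 22.9 CPM per kb, and SQSTM1 was the highest in MAVER1 at 17.7 CPM per kb. WIPI1 was the lowest gene of the set in JEKO1 at 1.17 CPM per kb, whereas in JVM2 it stood at 10.9 CPM per kb. GABARAPL1 was the lowest in MAVER1 at 1.12 CPM per kb and in JVM2, where it was close to absent. The lengths merge all annotated exons of a gene, and the order of the genes depends on them. Without length, MAP1LC3B was the highest in control JEKO1 at 92.4 CPM, beside 67.6 CPM for GABARAPL2. SQSTM1 was the highest in control JVM2 at 150.5 CPM, beside 69.6 CPM for GABARAPL2. In control MAVER1, WIPI1 was then the lowest at 4.34 CPM, beside 4.59 CPM for GABARAPL1. Over the 4 treatments, 9 of 10 genes differed in level between the lines (edgeR quasi-likelihood test, adjusted p under 0.05), and 90% of all 18674 genes tested did so. ULK1 was the gene that missed the threshold (adjusted p = 0.183), and in the control and ibrutinib libraries alone 10 of 10 passed, ULK1 included. For that smaller fit the share of all genes that passed is not given here. The differences between lines that follow are also over the 4 treatments and not in control alone. WIPI1 was higher in JVM2 than in JEKO1 by 2.35 (SE 0.34, adjusted p = 6.81e-05) on the log2 scale, and JEKO1 and MAVER1, the neighbours at the low end, did not differ beyond their spread (MAVER1 minus JEKO1 0.05, 95% interval -0.69 to 0.78). BECN1, ATG5 and NBR1 were ordered JVM2, MAVER1, JEKO1 from high to low, with each neighbouring pair apart: the smallest of these steps was ATG5 between MAVER1 and JEKO1 at 0.36 (SE 0.07, adjusted p = 0.00116). MAP1LC3B ran in the opposite order, with a MAVER1 minus JEKO1 difference of -0.67 (SE 0.13, adjusted p = 0.000705) and MAVER1 above JVM2 by 1.03 (SE 0.13, adjusted p = 2.65e-05). SQSTM1 was lowest in JEKO1, and JVM2 and MAVER1 did not differ beyond their spread (MAVER1 minus JVM2 -0.15, 95% interval -0.43 to 0.12). GABARAPL2 was lowest in MAVER1 and did not differ beyond the spread between JVM2 and JEKO1 (JVM2 minus JEKO1 0.13, 95% interval -0.07 to 0.33). For ATG16L1 only MAVER1 over JVM2 passed (0.23 (SE 0.07, adjusted p = 0.0162)), and its test over the lines did not pass with RLE scaling, with no filter on low counts, without JVM2 or without MAVER1.

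**Figure D1:**
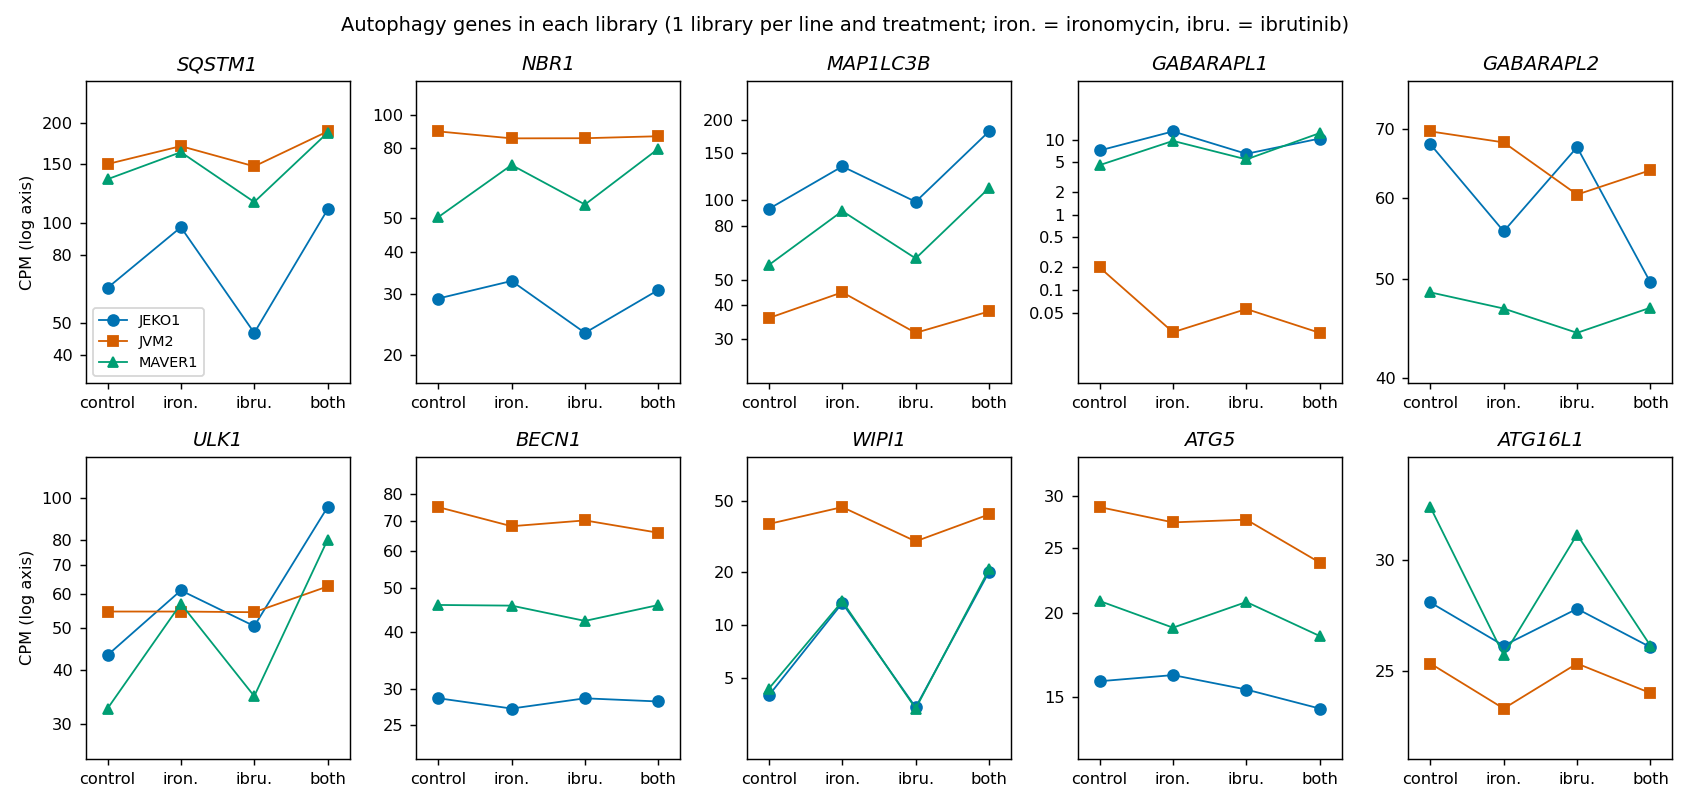
Level of each gene in the 12 libraries, in CPM on a log axis that is scaled separately in each panel, against the 4 treatments. Each point is 1 library and each line of points is 1 cell line (JEKO1 circles, JVM2 squares, MAVER1 triangles). WIPI1 rises in JEKO1 and MAVER1, from 3.97 and 4.34 CPM in control, with ironomycin and with both drugs and stays above them in JVM2, while BECN1 moves little in any line.

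The cargo receptors SQSTM1 and NBR1 stood higher with ironomycin in JEKO1 and MAVER1. The estimate was larger in JEKO1 for SQSTM1 and in MAVER1 for NBR1. Neither difference between these 2 lines passed (edgeR, adjusted p = 0.289 and 0.468). In JEKO1, SQSTM1 stood at 63.7 CPM in control, 97.01 CPM under ironomycin, 46.6 CPM under ibrutinib and 109.7 CPM when the drugs were combined. JVM2 held 150.5 CPM of SQSTM1 in control, 170.4 CPM under ironomycin, 148 CPM under ibrutinib and 189 CPM when the drugs were combined. For SQSTM1 in MAVER1 the values were 135, 163, 116 and 187 CPM, in the same order of treatments. Within each line the library with both drugs was the highest and the one with ibrutinib alone the lowest, but the JEKO1 value with both drugs lay below the control values of the other lines, so the treatments overlapped across lines. Over the 3 lines, SQSTM1 rose with both drugs by 0.53 (SE 0.14, adjusted p = 0.0216) on the log2 scale against control and by 0.75 (SE 0.15, adjusted p = 0.00816) against ibrutinib (edgeR). Ironomycin alone gave 0.36 (SE 0.14, adjusted p = 0.182), which did not pass.

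In JEKO1, NBR1 stood at 29.2 CPM in control, 32.8 CPM under ironomycin, 23.2 CPM under ibrutinib and 30.9 CPM when the drugs were combined. JVM2 held 89.4 CPM of NBR1 in control, 85.3 CPM under ironomycin, 85.4 CPM under ibrutinib and 86.5 CPM when the drugs were combined. For NBR1 in MAVER1 the values were 50.4, 71.4, 54.8 and 79.6 CPM, in the same order of treatments. NBR1, which shares the ubiquitin-binding role of SQSTM1, was higher with ironomycin than without it in both MAVER1 pairs and both JEKO1 pairs, and flat in JVM2. Over the lines the change with both drugs was 0.23 (SE 0.13, adjusted p = 0.218) against control in edgeR, which did not pass. SQSTM1 shares 1582 exon bases with MRNIP on the opposite strand, NBR1 shares 463 with an opposite-strand lincRNA, and whether reads were counted by strand is not given in the sources used here.

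The ATG8 genes parted: MAP1LC3B, which codes for LC3B, and GABARAPL1 stood higher with ironomycin in JEKO1 and MAVER1, and GABARAPL2 did not. In JEKO1, MAP1LC3B stood at 92.4 CPM in control, 133 CPM under ironomycin, 98.3 CPM under ibrutinib and 181 CPM when the drugs were combined. JVM2 held 35.9 CPM of MAP1LC3B in control, 44.8 CPM under ironomycin, 31.6 CPM under ibrutinib and 37.99 CPM when the drugs were combined. For MAP1LC3B in MAVER1 the values were 56.9, 90.7, 60.2 and 111 CPM, in the same order of treatments. JEKO1 and MAVER1 were highest with both drugs, while JVM2 was highest with ironomycin alone. Over the lines MAP1LC3B rose with both drugs by 0.69 (SE 0.15, adjusted p = 0.00849) against control and by 0.70 (SE 0.15, adjusted p = 0.0102) against ibrutinib. The change with ironomycin alone was 0.50 (SE 0.15, adjusted p = 0.096) in edgeR and passed only in DESeq2 (adjusted p = 0.0129) and without JVM2 (adjusted p = 0.0161). Reads on the near-identical copy MAP1LC3B2 numbered at most 16 in a library.

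In JEKO1, GABARAPL1 stood at 7.19 CPM in control, 12.9 CPM under ironomycin, 6.49 CPM under ibrutinib and 10.4 CPM when the drugs were combined. MAVER1 held 4.59 CPM of GABARAPL1 in control, 9.64 CPM under ironomycin, 5.47 CPM under ibrutinib and 12.2 CPM when the drugs were combined. In JVM2 GABARAPL1 had 7 reads in control, 1 under ironomycin, 2 under ibrutinib and 1 under both, which is too few to show a change. The estimates over the 3 lines, 0.77 (SE 0.34, adjusted p = 0.21) with ironomycin and 0.80 (SE 0.34, adjusted p = 0.102) with both drugs, did not pass in edgeR. Without JVM2, GABARAPL1 passed in both comparisons, at 0.92 (adjusted p = 0.0435) with ironomycin and at 0.94 (adjusted p = 0.0154) with both drugs. In JEKO1, GABARAPL2 stood at 67.6 CPM in control, 55.6 CPM under ironomycin, 67.2 CPM under ibrutinib and 49.6 CPM when the drugs were combined. JVM2 held 69.6 CPM of GABARAPL2 in control, 67.9 CPM under ironomycin, 60.4 CPM under ibrutinib and 63.8 CPM when the drugs were combined. For GABARAPL2 in MAVER1 the values were 48.5, 46.7, 44.3 and 46.8 CPM, in the same order of treatments. GABARAPL2, a family member linked to Golgi transport, stood lower with ironomycin in JEKO1, and its treatments overlapped in the other lines. Over the lines GABARAPL2 changed by -0.20 (SE 0.11, adjusted p = 0.175) with both drugs, which did not pass.

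Of the genes that start the autophagosome, ULK1 stood higher with ironomycin in JEKO1 and MAVER1, and BECN1 moved little in any line. In JEKO1, ULK1 stood at 43.2 CPM in control, 61.04 CPM under ironomycin, 50.5 CPM under ibrutinib and 95.2 CPM when the drugs were combined. JVM2 held 54.5 CPM of ULK1 in control, 54.5 CPM under ironomycin, 54.4 CPM under ibrutinib and 62.4 CPM when the drugs were combined. For ULK1 in MAVER1 the values were 32.5, 56.9, 34.7 and 79.98 CPM, in the same order of treatments. The library with both drugs was the highest in each line, by a wide margin in JEKO1 and MAVER1. ULK1 rose with both drugs by 0.88 (SE 0.19, adjusted p = 0.00825) against control and by 0.79 (SE 0.19, adjusted p = 0.0156) against ibrutinib. Ironomycin alone gave 0.42 (SE 0.19, adjusted p = 0.212), and adding ibrutinib to ironomycin gave 0.46 (SE 0.19, adjusted p = 0.452), neither of which passed in edgeR. In JEKO1, BECN1 stood at 28.7 CPM in control, 27.2 CPM under ironomycin, 28.7 CPM under ibrutinib and 28.2 CPM when the drugs were combined. JVM2 held 74.96 CPM of BECN1 in control, 68.1 CPM under ironomycin, 70.1 CPM under ibrutinib and 65.9 CPM when the drugs were combined. For BECN1 in MAVER1 the values were 45.8, 45.7, 42.3 and 45.8 CPM, in the same order of treatments. The 95% interval of the change in BECN1, the Beclin 1 gene, with both drugs was -0.24 to 0.10 on the log2 scale (estimate -0.07 (SE 0.08, adjusted p = 0.52)). With library totals in place of TMM that estimate turned to 0.05, and it did not pass there either. BECN1 shares 300 exon bases with PSME3 on the opposite strand, a gene with 5323 to 12837 reads per library.

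WIPI1, which binds phosphatidylinositol 3-phosphate on the forming membrane, had the largest change of the genes that passed. In JEKO1, WIPI1 stood at 3.97 CPM in control, 13.3 CPM under ironomycin, 3.39 CPM under ibrutinib and 19.9 CPM when the drugs were combined. JVM2 held 37.2 CPM of WIPI1 in control, 46.4 CPM under ironomycin, 29.7 CPM under ibrutinib and 42.2 CPM when the drugs were combined. For WIPI1 in MAVER1 the values were 4.34, 13.6, 3.34 and 20.6 CPM, in the same order of treatments. JEKO1 and MAVER1 moved side by side and, even with both drugs, stayed below every JVM2 library. Over the lines WIPI1 rose with both drugs by 1.58 (SE 0.39, adjusted p = 0.0142) against control and by 1.89 (SE 0.39, adjusted p = 0.00984) against ibrutinib. The 95% interval against control was 0.73 to 2.44, and the log2 ratios of both drugs to control were 2.31 in JEKO1, 2.23 in MAVER1 and 0.18 in JVM2. Ironomycin alone gave 1.15 (SE 0.38, adjusted p = 0.122), which did not pass. WIPI1 shares 828 exon bases with ARSG on the opposite strand, a gene with 156 to 649 reads per library.

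The conjugation factors ATG5 and ATG16L1 stood lower with both drugs than in control in every line, and over the lines these changes did not pass in edgeR. In JEKO1, ATG5 stood at 15.8 CPM in control, 16.2 CPM under ironomycin, 15.4 CPM under ibrutinib and 14.4 CPM when the drugs were combined. JVM2 held 28.8 CPM of ATG5 in control, 27.4 CPM under ironomycin, 27.6 CPM under ibrutinib and 23.8 CPM when the drugs were combined. For ATG5 in MAVER1 the values were 20.9, 19.04, 20.8 and 18.5 CPM, in the same order of treatments. The ATG5 library with both drugs was the lowest in each line, and the change against control, -0.20 (SE 0.08, adjusted p = 0.103), passed in DESeq2 (adjusted p = 0.0166) but not in edgeR. With ironomycin alone the ATG5 estimate was -0.06 (SE 0.08, adjusted p = 0.718), and it turned to 0.01 with library totals. In JEKO1, ATG16L1 stood at 27.97 CPM in control, 26.05 CPM under ironomycin, 27.7 CPM under ibrutinib and 25.98 CPM when the drugs were combined. JVM2 held 25.3 CPM of ATG16L1 in control, 23.5 CPM under ironomycin, 25.3 CPM under ibrutinib and 24.1 CPM when the drugs were combined. For ATG16L1 in MAVER1 the values were 32.7, 25.6, 31.3 and 26.04 CPM, in the same order of treatments. ATG16L1 stood lower in both libraries with ironomycin than in both without it in every line, and neither change against control passed (-0.19 (SE 0.09, adjusted p = 0.227) with ironomycin and -0.17 (SE 0.09, adjusted p = 0.163) with both drugs).

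Counted over the set, 4 of 10 genes passed with both drugs against control (adjusted p under 0.05), all of them higher: SQSTM1, MAP1LC3B, WIPI1 and ULK1. Over all genes tested 28.2% passed, 14.2% as higher. The median change of the 10 genes was 0.38 on the log2 scale, beside 0.05 over all genes. Against ibrutinib the same 4 genes passed, where 23.3% of all genes passed and 11.8% as higher, and the median was 0.51 beside 0.05. Of the 4, WIPI1 alone also changed by 1 or more on the log2 scale in each of these comparisons, as 6.29% of all genes did against control and 4.66% against ibrutinib. The calls changed with the lines in the fit. Without JEKO1 or without MAVER1, 0 of 10 genes passed against control or against ibrutinib. The 4 genes then had adjusted p-values against control of 0.0947 to 0.17. Without JVM2 the counts were 5 and 6. In fits of only the 6 libraries of each comparison, 0 passed, with adjusted p-values against control of 0.0797 to 0.0948. These fits hold fewer libraries, and the share of all genes that passed in them is not given here. Fewer libraries and the part of a line cannot be told apart by these counts. The 2 comparisons share the libraries with both drugs.

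With ironomycin alone, 0 of 10 genes passed in edgeR, 5 had an unadjusted p under 0.05 and 1, MAP1LC3B, passed in DESeq2. Over all 18674 genes 0.584% passed in edgeR and 22.5% had an unadjusted p under 0.05. In DESeq2 17.4% passed of the 13605 genes to which it gave an adjusted p. The median change of the set was 0.28, beside 0.03 over all genes, and the 5 genes with an unadjusted p under 0.05 were SQSTM1, MAP1LC3B, GABARAPL1, WIPI1 and ULK1, all with higher estimates. Without JVM2, 4 genes passed: MAP1LC3B, GABARAPL1, WIPI1 and ULK1. The share of all genes that passed in that fit is not given here. With ibrutinib alone, 0 of 10 genes passed in edgeR, 0 had an unadjusted p under 0.05 and 0 passed in DESeq2. Over all genes 0% passed in edgeR and 680 of 18674 had an unadjusted p under 0.05. The estimates with ibrutinib ran from -0.31 for WIPI1 (95% interval -1.16 to 0.54) to 0.10 for ULK1 (95% interval -0.31 to 0.51). Adding ibrutinib to ironomycin gave 0 passing genes in edgeR and 0 in DESeq2, with 1 (ULK1) at an unadjusted p under 0.05, where 0% of all genes passed in edgeR and 10.5% had an unadjusted p under 0.05. The log2 ratios of both drugs to ironomycin alone ran from 0.15 to 0.19 over the lines for SQSTM1 and from 0.19 to 0.64 for ULK1. The departure of both drugs from the sum of the single changes passed for 0 genes in edgeR and 0 in DESeq2, with 0 at an unadjusted p under 0.05. Of all genes 0% passed in edgeR and 367 had an unadjusted p under 0.05. The estimate was largest for WIPI1 at 0.74 (95% interval -0.43 to 1.92). The DESeq2 shares over all genes for ibrutinib alone, for adding ibrutinib to ironomycin and for the departure are not given here.

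**Figure D2:**
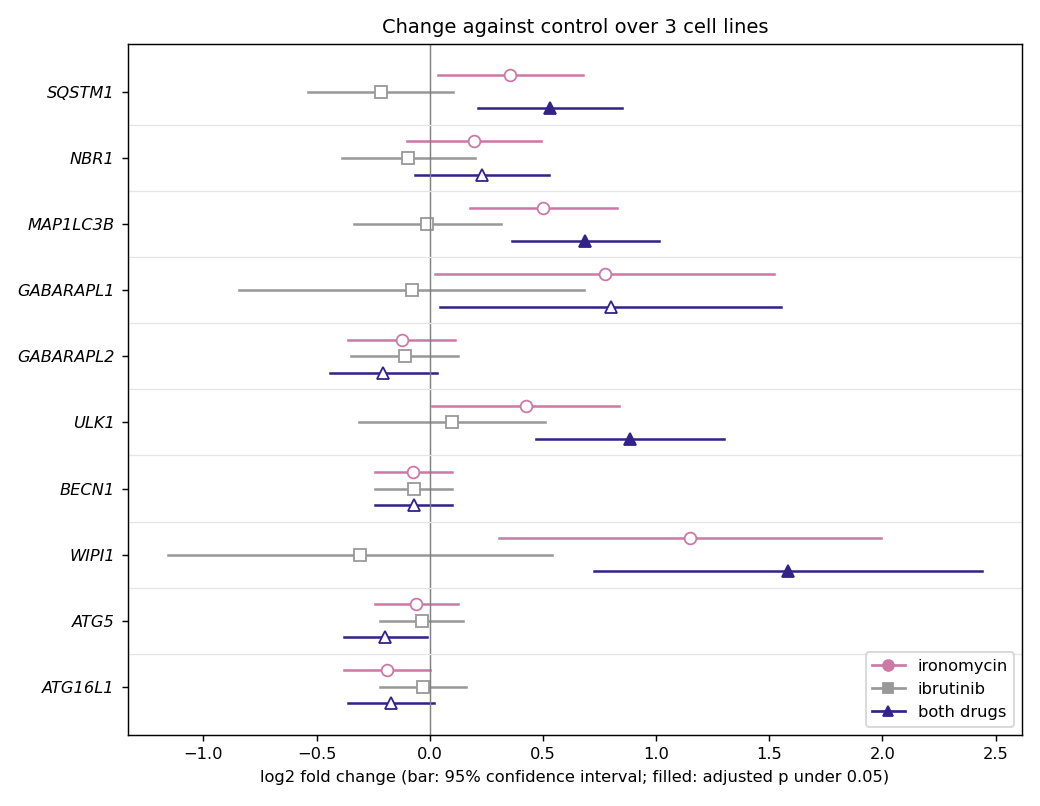
Change of each gene against control over the 3 cell lines, as the log2 fold change from edgeR with its 95% confidence interval, for ironomycin (circles), ibrutinib (squares) and both drugs (triangles); filled symbols have an adjusted p under 0.05. The 4 filled symbols are both drugs in SQSTM1, MAP1LC3B, ULK1 and WIPI1, and the 3 comparisons share their control libraries.

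The effect of ironomycin was then taken within each line. Taking the libraries of a line with and without ironomycin as 2 pairs, with and without ibrutinib, 6 of 10 genes passed within JEKO1, where 33.3% of all genes passed. SQSTM1, MAP1LC3B, GABARAPL1, WIPI1 and ULK1 rose there (17.3% of all genes rose) and GABARAPL2 fell (16.1% fell). Within MAVER1 7 of 10 passed, where 32.3% of all genes passed: SQSTM1, MAP1LC3B, GABARAPL1, WIPI1, ULK1 and NBR1 rose (16.6% of all genes rose) and ATG16L1 fell (15.7% fell). Within JVM2 0 of 10 passed in edgeR, 0 had an unadjusted p under 0.05 and 0 passed in DESeq2. Over all genes there, 2.27% passed in edgeR and 19% had an unadjusted p under 0.05, and the DESeq2 share is not given here. WIPI1 rose by 2.17 (SE 0.25, adjusted p = 0.000169) in JEKO1 and by 2.15 (SE 0.25, adjusted p = 0.000128) in MAVER1, and its estimate in JVM2 was 0.40 with a 95% interval of -0.05 to 0.86. ULK1 rose by 0.72 (SE 0.13, adjusted p = 0.00235) in JEKO1 and by 1.01 (SE 0.14, adjusted p = 0.00032) in MAVER1, beside 0.09 in JVM2 (95% interval -0.20 to 0.39). GABARAPL1 rose by 0.77 (SE 0.19, adjusted p = 0.00977) in JEKO1 and by 1.12 (SE 0.20, adjusted p = 0.00133) in MAVER1. SQSTM1 rose by 0.91 (SE 0.14, adjusted p = 0.000947) in JEKO1 and by 0.48 (SE 0.14, adjusted p = 0.0192) in MAVER1, and MAP1LC3B by 0.72 (SE 0.14, adjusted p = 0.00274) and 0.78 (SE 0.14, adjusted p = 0.00153). Those that passed in a single line were GABARAPL2, which fell in JEKO1 (-0.36 (SE 0.08, adjusted p = 0.00579)), and, in MAVER1, NBR1 (0.52 (SE 0.11, adjusted p = 0.00323)) and ATG16L1 (-0.31 (SE 0.08, adjusted p = 0.012)). NBR1 also passed within JEKO1 with a filter of at least 1 CPM in 3 libraries, with cell line by ibrutinib terms and with library totals. Changes of 1 or more in size were passed by WIPI1 alone within JEKO1, beside 7.63% of all genes, and by GABARAPL1, WIPI1 and ULK1 within MAVER1, beside 6.56%. The spread behind these within-line values was estimated over all 12 libraries in 1 fit, in which the lines share 1 ibrutinib term. It is therefore not a spread within the line alone, and each line and treatment had 1 library.

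The difference between the 3 lines itself passed for 2 of 10 genes, WIPI1 (adjusted p = 0.00884) and ULK1 (adjusted p = 0.029), and for 7.97% of all genes. The ironomycin effect on WIPI1 was smaller in JVM2 than in JEKO1, with a JVM2 minus JEKO1 difference of -1.76 on the log2 scale (95% interval -2.47 to -1.06, adjusted p = 0.0139). Between MAVER1 and JEKO1 the difference for WIPI1 was -0.02 (95% interval -0.78 to 0.74). The MAVER1 minus JVM2 difference for WIPI1 was 1.74 (95% interval 1.035 to 2.45, adjusted p = 0.0109). For ULK1 the MAVER1 effect exceeded the JVM2 effect by 0.91 (SE 0.19, adjusted p = 0.0182), and the JVM2 minus JEKO1 difference of -0.62 (SE 0.19, adjusted p = 0.0953) did not pass. The differences for SQSTM1 (adjusted p = 0.12), MAP1LC3B (0.223), GABARAPL1 (0.112), GABARAPL2 (0.0737), ATG16L1 (0.329) and NBR1 (0.0881) did not pass, so passing in one line and not in another does not show that these genes responded differently. Without JVM2, 0 genes passed this test in edgeR, without MAVER1 only WIPI1 did, and without JEKO1 4 did (GABARAPL1, WIPI1, ULK1 and NBR1). For these fits the share of all genes that passed is not given here. DESeq2 passed 4 (GABARAPL1, GABARAPL2, WIPI1 and ULK1), beside 15.9% of the 13967 genes to which it gave an adjusted p. JVM2 and MAVER1 received the same dose of ironomycin, 250 nM, and JEKO1 a lower one.

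**Figure D3:**
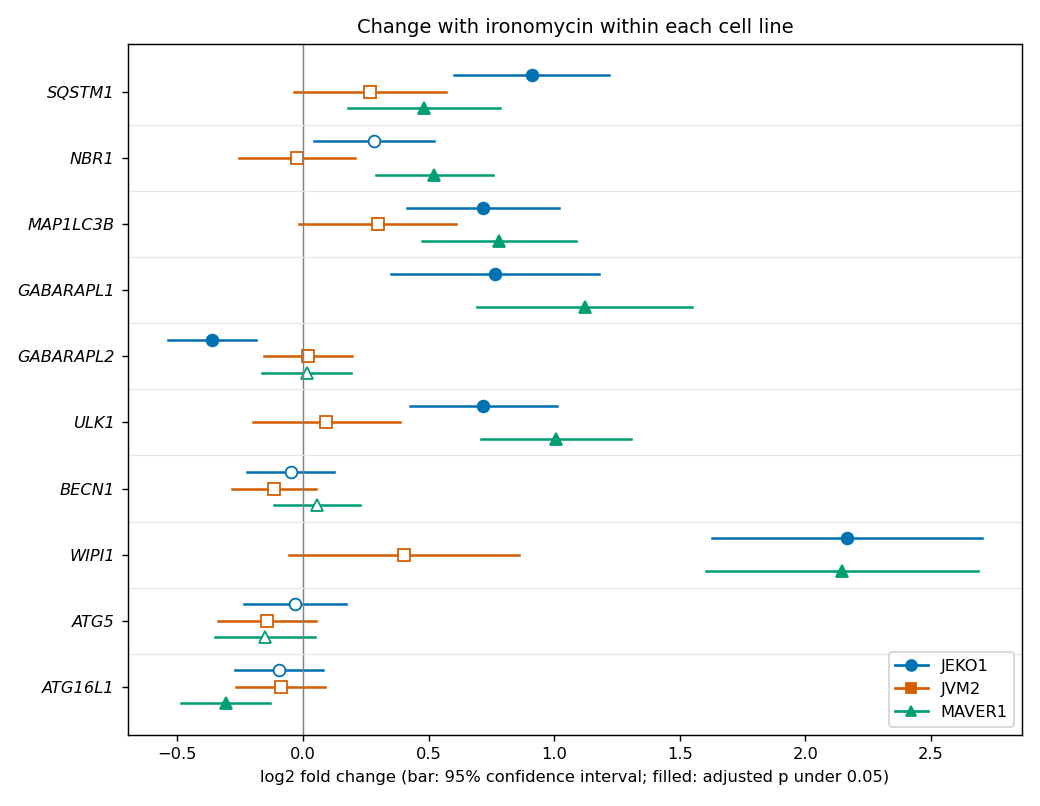
Change of each gene with ironomycin within each cell line, as the log2 fold change over 2 pairs of libraries (with and without ibrutinib) with its 95% confidence interval; filled symbols have an adjusted p under 0.05. WIPI1 sits at 2.17 in JEKO1 (circles) and 2.15 in MAVER1 (triangles) beside 0.40 in JVM2 (squares), and no JVM2 symbol is filled. GABARAPL1 is not drawn for JVM2, which had 1 to 7 reads.

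Promoters are shown for the genes that stood higher with ironomycin in JEKO1 and MAVER1 and have a single listed start: the 250 bases before the start, 5′ to 3′ on the strand of the gene, from RefSeq (GRCh38.p14; the reads were placed on GRCh37 per the submitters' processing notes). Capitals mark a match to 1 of 3 motifs that were searched on both strands. 
WIPI1, chr17:68457497-68457746, minus strand: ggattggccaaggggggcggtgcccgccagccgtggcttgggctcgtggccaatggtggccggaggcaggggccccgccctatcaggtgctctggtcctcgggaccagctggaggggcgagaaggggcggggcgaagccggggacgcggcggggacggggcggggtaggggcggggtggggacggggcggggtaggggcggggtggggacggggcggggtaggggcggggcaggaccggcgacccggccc
MAP1LC3B, chr16:87392086-87392335, plus strand: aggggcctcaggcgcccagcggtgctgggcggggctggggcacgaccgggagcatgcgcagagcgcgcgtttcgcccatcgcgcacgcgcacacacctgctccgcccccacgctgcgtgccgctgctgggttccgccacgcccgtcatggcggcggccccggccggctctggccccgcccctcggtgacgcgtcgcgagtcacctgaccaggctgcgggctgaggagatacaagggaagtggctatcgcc
ULK1, chr12:131894372-131894621, plus strand: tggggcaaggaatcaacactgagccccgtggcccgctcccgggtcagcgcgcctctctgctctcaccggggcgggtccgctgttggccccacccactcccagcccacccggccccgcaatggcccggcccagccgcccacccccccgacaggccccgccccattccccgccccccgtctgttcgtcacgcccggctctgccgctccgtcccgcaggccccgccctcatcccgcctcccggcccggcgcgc
GABARAPL1, chr12:10212627-10212876, plus strand: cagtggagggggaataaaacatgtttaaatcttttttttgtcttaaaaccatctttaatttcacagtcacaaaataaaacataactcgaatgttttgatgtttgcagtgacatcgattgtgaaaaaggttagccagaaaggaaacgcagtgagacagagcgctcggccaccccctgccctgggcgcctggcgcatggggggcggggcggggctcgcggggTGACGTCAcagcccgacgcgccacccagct
The stretch was 79.6% G or C in WIPI1, 74.8% in MAP1LC3B and 78% in ULK1, all above the upper quartile of 68% over 35116 promoters, and 51.6% in GABARAPL1, below the median of 58%. The motifs were CACGTG, the E-box core that TFEB and TFE3 bind, TGATGNAA, which ATF4 binds with C/EBP proteins, and TGACGTCA, the cyclic AMP response element. They were looked for in the 250 bases before and 50 after each of the 14 listed starts of the 10 genes. CACGTG and TGATGNAA matched in 0 of 14, beside 7.26% and 3.62% of all promoters, and TGACGTCA matched in 1, GABARAPL1, beside 1.85%. The GABARAPL1 match begins 30 bases before the start. The 50 bases after the listed ULK1 start were not found in a GENCODE v29 transcript of the gene, unlike those of WIPI1, MAP1LC3B and GABARAPL1. A match is a stretch of letters and not a measured binding site, and a missing match concerns these windows alone.

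Of 53 other autophagy genes 50 were tested. MAP1LC3C, the cargo receptor NCOA4 and MITF were not, and the values below do not cover them. Whether each had too few reads or no entry matched by name is not given here, so nothing is said of their levels. With both drugs against control 8 of the 50 rose (14.2% of all genes rose) and 3 fell (14% fell). The median change was 0.06, beside 0.05 over all genes and 0.38 in the 10 core genes. Among genes that work with ULK1, ATG13 rose by 0.43 (SE 0.09, adjusted p = 0.00849) and RB1CC1, the FIP200 scaffold, by 0.47 (SE 0.12, adjusted p = 0.0178), 2 of 4 tested. Of 7 genes of the BECN1 kinase complexes, ATG14, which directs the complex to the forming membrane, rose by 0.56 (SE 0.12, adjusted p = 0.00876), and UVRAG, which takes its place in the endosomal complex, changed by -0.33 (SE 0.11, adjusted p = 0.044). Of 8 WIPI, lipid transfer and scramblase genes 3 rose: WDR45, a relative of WIPI1 that codes for WIPI4, by 1.13 (SE 0.23, adjusted p = 0.00694), the lipid transfer protein gene ATG2B by 0.53 (SE 0.09, adjusted p = 0.00426) and the scramblase gene TMEM41B by 0.59 (SE 0.15, adjusted p = 0.0178). Of 8 conjugation enzymes 1 passed, ATG3, the E2-like enzyme of the ATG8 proteins, at -0.32 (SE 0.08, adjusted p = 0.0127). The list's median was -0.29, and 3 of the 8 estimates were above 0. Of 7 further cargo receptors 1 passed, FUNDC1, a mitochondrial receptor, at -0.39 (SE 0.12, adjusted p = 0.0296). Of 9 genes for fusion with lysosomes EPG5, a tethering factor, rose by 0.68 (SE 0.11, adjusted p = 0.00373), and of 5 transcription factors FOXO3 rose by 0.73 (SE 0.12, adjusted p = 0.00398). UVRAG had the highest adjusted p of these 11 genes and is named after its values were seen. Neither of the 2 further ATG8 genes tested passed, and FOXO3 was the only transcription factor of the list that did.

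Against ibrutinib, 8 of the 50 rose (11.8% of all genes rose) and 2 fell (11.5% fell). They included WDR45 at 1.01 (SE 0.23, adjusted p = 0.0126) and the cargo receptor OPTN at 0.95 (SE 0.21, adjusted p = 0.0132), and OPTN and VAMP8, which fell (-0.37 (SE 0.12, adjusted p = 0.045)), are named here after their values were seen. With ironomycin alone 0 of 50 passed in edgeR and 13 had an unadjusted p under 0.05, as did 22.5% of all genes. With ibrutinib alone 0 passed in edgeR and 0 had an unadjusted p under 0.05, beside 680 of all 18674 genes. Within JEKO1 11 of 50 rose and 11 fell with ironomycin, beside 17.3% and 16.1% of all genes, and within MAVER1 17 rose and 6 fell, beside 16.6% and 15.7%. Within JVM2 0 passed in edgeR and 8 had an unadjusted p under 0.05, as did 19% of all genes. The difference between lines passed for 2 of 50, WDR45 (adjusted p = 0.037) and the receptor gene TOLLIP (adjusted p = 0.0177), beside 7.97% of all genes, and TOLLIP is named after its values were seen. WDR45 rose with ironomycin by 1.12 (SE 0.17, adjusted p = 0.000806) in JEKO1 and by 1.12 (SE 0.17, adjusted p = 0.000611) in MAVER1, with an estimate of 0.15 in JVM2 that did not pass. TOLLIP rose in MAVER1 by 0.69 (SE 0.10, adjusted p = 0.000397) and did not pass in JEKO1 (-0.04) or JVM2 (0.17).

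**Figure D4:**
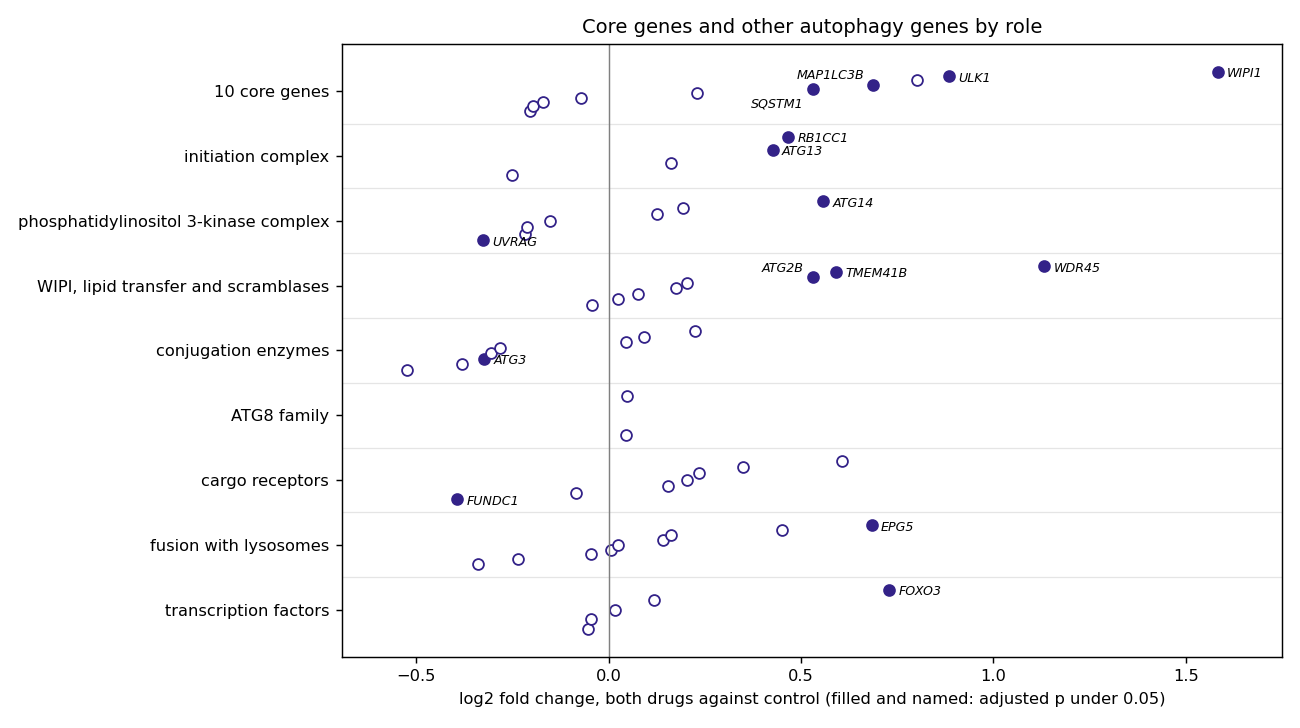
Change with both drugs against control, as the log2 fold change from edgeR, for the 10 core genes and for the 50 other autophagy genes tested, in rows by role. Each point is 1 gene, and filled, named points have an adjusted p under 0.05. The core genes reach 1.58 (WIPI1), the initiation complex has its 2 named genes at 0.43 and 0.47, and the conjugation enzymes lie mostly below 0.

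The stress genes ATF4, DDIT3 (CHOP) and TRIB3, whose products act in the integrated stress response, are given beside the set. DDIT3 stood at 89.7 and 143 CPM in the JEKO1 libraries with ironomycin and with both drugs, beside 18.6 CPM in control. The same 3 values were 35.5, 51.2 and 15.3 CPM in MAVER1 and 21.9, 20.3 and 12.6 CPM in JVM2. JVM2 thus had the lowest DDIT3 level with both drugs. With both drugs against control DDIT3 rose by 1.82 (SE 0.33, adjusted p = 0.00462), ATF4 by 0.48 (SE 0.13, adjusted p = 0.0218) and TRIB3 by 1.96 (SE 0.55, adjusted p = 0.0238). The ironomycin effect differed between lines for DDIT3 (adjusted p = 0.0179) and TRIB3 (0.00216) and the difference did not pass for ATF4 (0.436). Their part in the changes of the autophagy genes was not tested.

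Over the 12 libraries, with each line's mean removed, MAP1LC3B ran with WIPI1 (Pearson's r = 0.96), with ULK1 (0.94) and with SQSTM1 (0.83), and SQSTM1 ran with WIPI1 (0.92). ATG16L1 ran against MAP1LC3B (-0.85) and WIPI1 (-0.83), and BECN1 had values of -0.16 to 0.07 with SQSTM1, MAP1LC3B, WIPI1 and ULK1. These values describe the libraries, which share 3 lines and the same 4 treatments. Among 11212 named genes the patterns most like that of WIPI1 were ERN1, which codes for the ER stress sensor IRE1α (0.993), ABHD4 (0.990), STAT2 (0.990), GFPT1 (0.989) and ARMCX3 (0.987). Those most like MAP1LC3B were CARF (0.992), P2RX4 (0.989), HBP1 (0.988), NIPSNAP3B (0.986) and SLC30A7 (0.986). Those most like SQSTM1 were ADIRF-AS1 (0.985), NECTIN1 (0.981), GGA1 (0.979), CPT1A (0.976) and ITPR1 (0.974).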

How the data were processed

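The data were read counts of 12 RNA-seq libraries. The counts were deposited by the authors as whole reads for each Ensembl gene, with no scaling. STAR, DESeq2 and GRCh37 are named in the submitters' processing notes, and the counting tool and its strand setting are not given in the sources used here. Every sample column was used (0 left out). Of 63677 genes, 39699 have a name here. Testing was done in R 4.3.3 by the quasi-likelihood method of edgeR 4.0.16, after filterByExpr and TMM scaling, with p-values adjusted by Benjamini-Hochberg across 18674 genes. A gene passed at an adjusted p under 0.05, whatever its fold change. The model had treatment and cell line as terms, the line being a block because its 4 libraries share 1 cell line. After subtracting treatment means, libraries of the same line correlated at 0.926 to 0.976 (18 pairs). Those that shared neither line nor treatment correlated at -0.684 to -0.127 (36 pairs), and the subtraction itself pushes values between lines below 0. The ironomycin effect per line came from a model with line, each drug and line by ironomycin. P-values measure the spread between these libraries, 1 for each line and treatment. CPM per kb used merged GENCODE v29 exons. Log2 ratios within a line used a prior count of 2. Tests were also run on simulated counts, and the outcome is not given here. For both drugs against control each changed gene had the same fold change in every simulated line. The simulation therefore does not cover responses that differ between lines in that comparison.

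The 10 genes, the 53 other autophagy genes, the near-identical copies, the markers and the motifs were chosen with earlier results of these data known, and 1 further marker is not reported here. All 10 genes are named, as are at most 10 other autophagy genes that passed against control with the lowest adjusted p, 4 more where the text says that their values were seen, and the 5 genes most like SQSTM1, MAP1LC3B and WIPI1 among those with a name and a mean log2 CPM of 1 or more. Alternatives were DESeq2 1.42.0, RLE or library totals for scaling, other filters, a fold minimum, fewer libraries, other line terms and leaving out each line. Within-line alternatives were added after the data were seen.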

Additional observations from a re-analysis of the deposited data

Results flagged for a closer look

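The ironomycin effect on WIPI1 differed between the cell lines (edgeR quasi-likelihood test on 2 coefficients, adjusted p = 0.00884), and so did the effect on ULK1 (adjusted p = 0.029). On the log2 scale WIPI1 had estimates of 2.17 (JEKO1), 0.40 (JVM2) and 2.15 (MAVER1), and ULK1 had 0.72, 0.09 and 1.01. No group had the 4 samples that a search for outlying samples needs.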

How the results depend on the processing

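With both drugs against control, 4 of 10 genes passed in the design with cell line as the replicate block, 0 with no replicate block, 0 with only the 6 libraries of the comparison, 1 with a log2 fold change of at least 1, and 0 to 5 when a line was left out. Against ibrutinib the counts were 4, 0, 0, 1 and 0 to 6. Leaving out JVM2 gave the highest of these counts and leaving out JEKO1 or MAVER1 gave 0. With ironomycin alone 0 passed, 1 in DESeq2 and 0 to 4 when a line was left out. The difference between lines passed for 2 genes, for 4 in DESeq2, for 4 with cell line by ibrutinib terms and for 0 to 4 when a line was left out. The test of levels between lines passed for 9 genes, for 10 with library totals or with the control and ibrutinib libraries alone, for 8 with RLE scaling or no filter on low counts, and for 7 to 8 when a line was left out. For fits without a line or with fewer libraries, the share of all genes that passed is not given here. The causes were not tested.

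With a log2 fold change of at least 1, the counts within JEKO1 and MAVER1 were 1 and 3, from 6 and 7 (added after the data were seen). Over all genes, ironomycin alone called 109 in edgeR and 2362 in DESeq2.

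Some estimates that did not pass changed sign. With library totals ATG5 turned to 0.0084 with ironomycin, MAP1LC3B to 0.0099 with ibrutinib and BECN1 to 0.053 with both drugs. With ibrutinib and no replicate block MAP1LC3B turned to 0.0371 and GABARAPL1 to 0.0042. When a line was left out, the ibrutinib estimates ran from -0.0599 to 0.083 for MAP1LC3B, from -0.3984 to 0.0334 for GABARAPL1 and from -0.188 to 0.0196 for NBR1.

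Library totals moved the median of all genes with both drugs against control from 0.05 to 0.18 and the share of passing genes that were higher from 50.4% to 71.6%. The same 4 genes passed with TMM, RLE and library totals. The design has 1 library per line and treatment, and GABARAPL1 in JVM2, with 1 to 7 reads, is too shallow to show a change.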
